A study of Mus musculus with 8 samples.

Results

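Krüppel-like factors are transcription factors that bind GC-rich and CACCC-type promoter elements through zinc fingers at the C-terminal end of the protein. The table of gene-level coverage from primary mouse keratinocytes had rows for 17 Klf genes, and 10 of them are described here: Klf2, Klf3, Klf4, Klf5, Klf6, Klf7, Klf9, Klf10, Klf11 and Klf13. They were taken by symbol from 19457 genes, and all 10 passed the filter on low values, a mean of at least 1 aligned base per Mb, as did 11870 genes in all. The unit is the number of bases aligned to a gene for each megabase (Mb) of a library's scaled total, so it compares a gene between libraries. The study compared keratinocytes cultured from HOIL1 ΔRING1 mice (HdR, 4 libraries) with keratinocytes from wild-type mice (WT, 4 libraries), both harvested before confluence. Rbck1 encodes HOIL-1, part of LUBAC, the enzyme complex that builds linear ubiquitin chains, and in HdR mice its RING1 domain is deleted. The labels give no age, sex, strain or treatment for either group, and do not state if the replicates were separate animals or separate cultures, so p-values here reflect library-to-library spread alone, which may be technical.

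In the family, KLF2, KLF4, KLF5, KLF6 and KLF7 are mostly known as activators. KLF3 recruits the CtBP corepressors, and KLF9, KLF10, KLF11 and KLF13 recruit the Sin3A corepressor. In epidermis KLF4 is made in the differentiating layers above the basal layer and mice without it do not form a working skin barrier, while KLF5 is known from proliferating basal cells. KLF9 is induced by glucocorticoids and follows the circadian clock in human keratinocytes, and KLF10 and KLF11 were first described as early genes induced by TGF-β.

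The promoters of 4 members are shown because they hold the sequence elements that the family and the clock factors bind: Klf3, with the most CACCC boxes, Klf7, the member that rose most in HdR, and Klf4 and Klf6, the most abundant members. RefSeq promoters on GRCm38.p6, from 250 bases before to 50 bases after the start, matched 8 of the 10 members (not Klf5 and Klf10). The sequences are given 5′ to 3′ on the strand of the gene, with the matches to CACCC or to the E-box CACGTG, on either strand, in capitals. They lie at chr5:64803271-64803570 (Klf3, plus strand), chr1:64121340-64121639 (Klf7, minus strand), chr4:55532426-55532725 (Klf4, minus strand) and chr13:5861239-5861538 (Klf6, plus strand). The windows of Klf3, Klf4 and Klf6 span the 5′ end of their gene in the GENCODE vM21 annotation. That of Klf7 lies inside its gene (64029447 to 64122282), downstream of the annotated 5′ end, so it is not the sequence ahead of the gene.
Klf3: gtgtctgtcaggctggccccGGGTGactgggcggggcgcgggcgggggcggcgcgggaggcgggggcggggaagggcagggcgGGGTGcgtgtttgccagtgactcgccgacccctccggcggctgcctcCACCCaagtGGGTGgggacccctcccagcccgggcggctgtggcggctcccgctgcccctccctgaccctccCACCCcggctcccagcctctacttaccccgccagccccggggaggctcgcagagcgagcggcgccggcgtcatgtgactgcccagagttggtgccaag
Klf7: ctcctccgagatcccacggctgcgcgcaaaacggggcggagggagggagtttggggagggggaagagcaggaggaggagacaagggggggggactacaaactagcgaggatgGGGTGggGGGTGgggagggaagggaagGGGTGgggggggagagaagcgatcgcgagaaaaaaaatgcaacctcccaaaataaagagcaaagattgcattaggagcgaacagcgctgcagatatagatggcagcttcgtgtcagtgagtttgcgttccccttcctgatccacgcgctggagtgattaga
Klf4: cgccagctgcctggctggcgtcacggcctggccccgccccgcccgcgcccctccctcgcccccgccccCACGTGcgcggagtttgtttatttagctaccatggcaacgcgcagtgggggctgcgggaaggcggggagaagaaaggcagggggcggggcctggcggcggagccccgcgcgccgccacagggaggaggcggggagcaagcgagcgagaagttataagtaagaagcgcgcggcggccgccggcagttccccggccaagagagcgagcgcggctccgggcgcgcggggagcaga
Klf6: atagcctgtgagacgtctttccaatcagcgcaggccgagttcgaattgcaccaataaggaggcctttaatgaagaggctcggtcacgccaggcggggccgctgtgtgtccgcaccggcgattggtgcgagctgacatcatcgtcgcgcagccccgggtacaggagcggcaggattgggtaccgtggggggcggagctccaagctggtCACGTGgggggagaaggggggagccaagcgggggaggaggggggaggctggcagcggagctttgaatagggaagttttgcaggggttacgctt
The CACCC box, searched on both strands, had 5 matches in the Klf3 promoter, 3 in Klf7, 1 each in Klf2, Klf9 and Klf13, and 0 in Klf4, Klf6 and Klf11. These are 5 of 8 promoters, and 57.5% of all 32851 RefSeq promoters of the same length held the box. The GC box GGGCGG, whose complement can share bases with a neighbouring CACCC box, was in 7 of 8, against 35.7% of all promoters, and Klf9 was the one without it. The E-box CACGTG was in 3 of 8 (Klf4, Klf6 and Klf11), against 7.2% of all, and the core TGACG of the cyclic AMP response element was in 5 of 8 (Klf2, Klf3, Klf4, Klf9 and Klf13), against 20.8% of all. The member promoters were 58.3% G and C in Klf7 to 77.7% in Klf11, and the median of all promoters was 52.7%. A match describes these letters and is not evidence of binding.

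Most of the family was lower in HdR keratinocytes, by modest amounts. Of the 10 members, 6 were called lower in HdR (Klf10, Klf2, Klf13, Klf3, Klf9 and Klf4), 2 were called higher (Klf7 and Klf6) and 2 were not called (Klf5 and Klf11), by limma with Benjamini-Hochberg adjusted p under 0.05 over all tested genes. In this comparison 45% of all 11870 genes were called, 23.8% lower and 21.2% higher, so a call on its own sets no gene apart. The median log2 fold change, HdR minus WT, was -0.26 over the members and -0.01 over all tested genes. HdR and WT values were fully apart in 7 of the 10 members, and in 41.1% of all tested genes. When a change beyond 1.2-fold was required (limma treat), 1 member was called lower, Klf10, and 0 higher, and 7.47% of all tested genes were called, 4.58% lower and 2.89% higher.

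**Figure D1:**
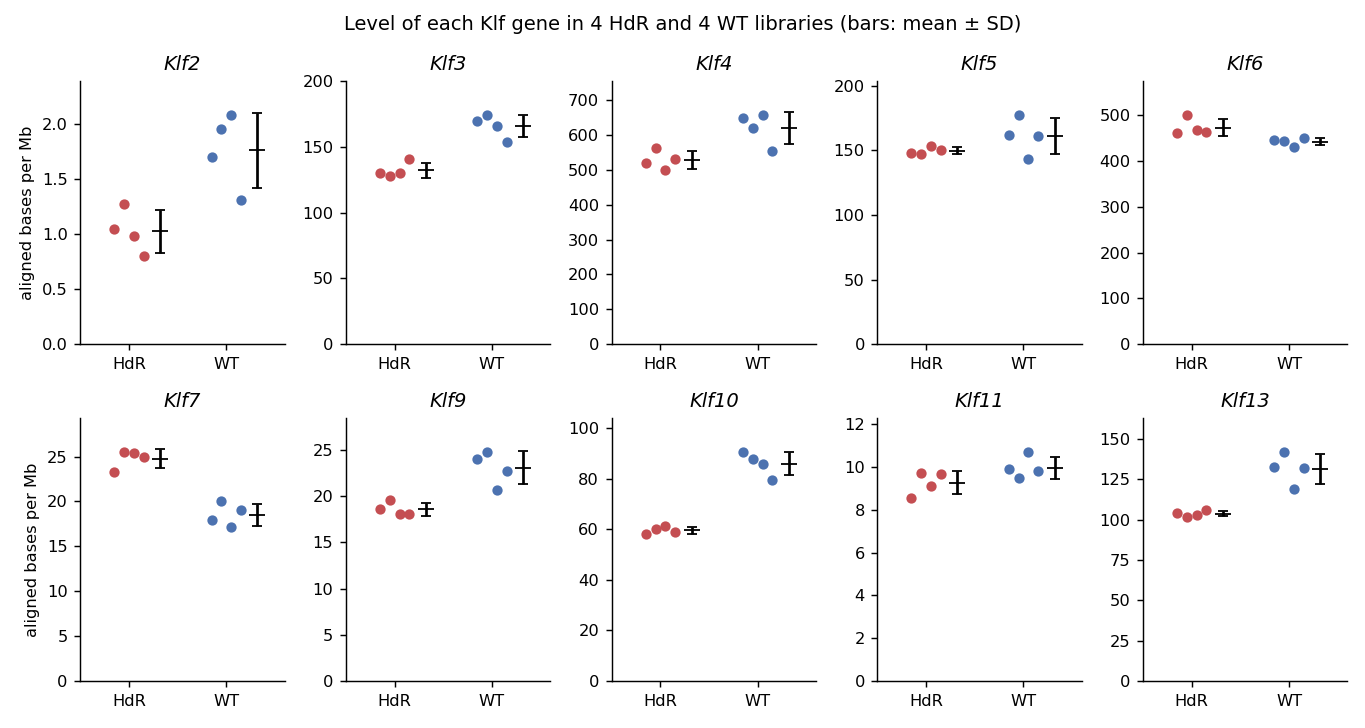
Level of each Klf gene, in aligned bases per Mb of library, for each of the 4 HdR and 4 WT libraries, with bars for the mean ± SD. Klf10 in HdR sits between 58.2 and 61.4, below the lowest WT library at 79.7, and Klf7 in HdR sits above every WT library.

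Facts of the libraries touch these values. HdR libraries held 2.31 to 4.31 Gb of aligned bases and WT libraries 4.78 to 5.43 Gb, so every HdR library was shallower and depth and genotype cannot be told apart. Rbck1, the targeted gene, had 43.7 ± 1.87 aligned bases per Mb in HdR and 87.5 ± 3.4 in WT (SD, n = 4 each). The keratin genes of basal keratinocytes, Krt5 and Krt14, were at 18600 ± 311 and 17000 ± 212 aligned bases per Mb in HdR and at 17300 ± 851 and 17500 ± 1450 in WT (SD, n = 4 each). Endothelial cells and T cells are known for high Klf2. The 5 endothelial markers in the table summed to 1.54 to 2.75 in HdR and 0.949 to 1.27 in WT, and the 3 T cell markers to at most 0.0771 in HdR and 0.126 in WT, with Cd4 at 0 in every library. Of the macrophage and dendritic cell markers, Adgre1 and Cd207 were at 0 in every library, and Ptprc, Csf1r and H2-Ab1 averaged 0.485 or less in both genotypes. Cd68 and Itgam were called lower in HdR (Itgam not when libraries were thinned to equal depth, limma adjusted p = 0.0994). The 7 markers summed to 43.1 to 44.2 in HdR and 52.4 to 66.8 in WT. Cd68 made up most of that sum, at 39.5 ± 0.569 in HdR and 56.4 ± 5.84 in WT (SD, n = 4 each). Of 7 tested melanocyte markers 6 were called lower in HdR, with a sum of 27.1 to 29.5 in HdR and 51.9 to 59.9 in WT over the 8 markers. Over all tested genes 23.8% were called lower and 21.2% higher. Tyr, Kit and Mlana averaged 0.635, 0.76 and 0.8 in HdR and passed the filter through WT, at 1.85, 1.69 and 1.48. With a stricter filter, at least 5 in at least 4 libraries, 3 of 4 tested were called lower. The call of Mlana was lost without HdR 4 or WT 3 (limma adjusted p 0.0526 to 0.0561). Fibroblast markers summed to 0.121 to 3.86 in HdR and 0.118 to 0.73 in WT, and of 4 tested sebocyte markers, which keratinocytes share in part, 3 were called higher and 1 lower, with a sum over the 7 in the table of 912 to 996 in HdR and 695 to 780 in WT. The part of these cells in the members' changes was not tested.

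Level per exon length orders the members, since coverage grows with gene length. Klf4 and Klf6 led in both genotypes, and together they made up 77.4% to 79.4% of the summed level of the 10 members per kb of exon in the HdR libraries and 75.2% to 78.0% in the WT libraries. Klf4 had 173 ± 8.73 aligned bases per Mb per kb in HdR and 203 ± 15.2 in WT, and Klf6 had 108 ± 4.14 in HdR and 101 ± 1.93 in WT (SD, n = 4 each). Klf5 followed at 28.8 ± 0.513 in HdR and 30.9 ± 2.65 in WT. Klf10, Klf13 and Klf3 were close together, at 14.3, 13.8 and 11.8 in HdR and at 20.6, 17.5 and 14.8 in WT, and the ranges of Klf10 and Klf13 overlapped in HdR and not in WT. Klf9 had 3.86 ± 0.149 in HdR and 4.8 ± 0.377 in WT. At the low end Klf7 stood above Klf11 in HdR, with 3.05 against 2.13 and ranges apart, while in WT Klf11 and Klf7 had 2.3 and 2.28 with overlapping ranges. Klf2 was the lowest member, at 0.555 ± 0.105 in HdR and 0.955 ± 0.184 in WT. The other neighbours in the order did not overlap in either genotype. The summed level of the 10 members was 349 to 376 in HdR and 376 to 411 in WT. The highest HdR library and the lowest WT library round to the same value.

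**Figure D2:**
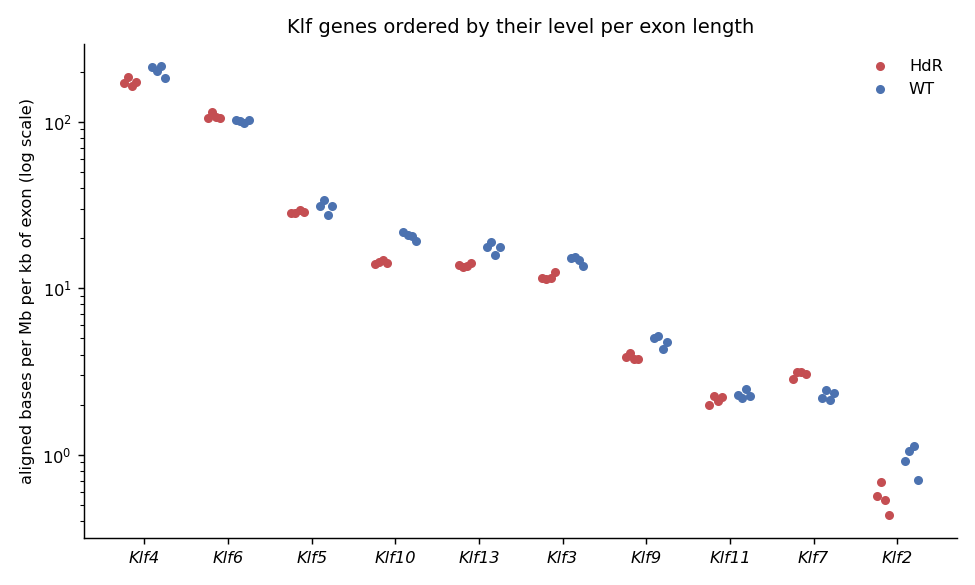
Level of each Klf gene per kb of exon, on a log scale, in the 4 HdR and 4 WT libraries, ordered by the WT mean. Klf4 stands highest and Klf2 lowest, and Klf7 and Klf11 lie together in WT and apart in HdR.

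Klf4, on chromosome 4 (GRCm38, 55527143 to 55532466, minus strand), encodes the family member required for the skin barrier. It had 519, 563, 499 and 531 aligned bases per Mb in HdR libraries 1 to 4, against 649, 620, 656 and 554 in WT libraries 1 to 4. The genotypes overlapped in 1 place, since HdR 2 lay above WT 4. Its log2 fold change was -0.23 ± 0.0514 (SE, limma adjusted p = 0.00227), with the HdR mean at 0.852 times the WT mean. Markers of differentiating keratinocytes moved with it: of the 5 tested, Krt1, Krt10, Lor and Tgm1 were called lower in HdR and Ivl was not called, and their summed level was 364 to 445 in HdR and 745 to 982 in WT. The call of Lor was lost without any single HdR library, without WT 1 or without WT 2 (limma adjusted p 0.0521 to 0.0951) and at equal depth (0.0531), and Ivl was called higher without WT 3 and by limma-voom. Krt10 had 49.4 ± 3.67 in HdR and 208 ± 10 in WT (SD, n = 4 each), a larger fold than that of Klf4. In these bulk libraries fewer cells of a type and less RNA per cell cannot be told apart.

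Klf5 (chromosome 14, 99298691 to 99315036), the member known from proliferating basal cells, was not called. It had 148, 147, 153 and 150 aligned bases per Mb in HdR libraries 1 to 4 and 162, 177, 143 and 161 in WT libraries 1 to 4. HdR values were tight, with a coefficient of variation of 1.78%, and WT 3 alone lay below all of them. The log2 fold change was -0.10, with a 95% interval of -0.21 to 0.01 (limma adjusted p = 0.116). Without WT 3 it was -0.16 and called lower (limma adjusted p = 0.00343), and limma-voom also called it (0.0367), while adjusted p under all 20 alternatives ran from 0.00343 to 1. Of 6 basal keratinocyte markers 4 were called higher in HdR and 0 lower, with a summed level of 41200 to 42500 in HdR and 38200 to 41500 in WT. The number called higher was 2 without HdR 1, HdR 3, HdR 4 or WT 1, in each case through the loss of Krt5 and Col17a1.

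The log2 ratio of Klf4 to Klf5 within a library was 1.70 to 1.93 in HdR and 1.77 to 2.19 in WT, with means of 1.81 ± 0.0949 in HdR and 1.94 ± 0.193 in WT (SD, n = 4 each). The difference of -0.13 was within the spread between libraries (exact permutation test, two-sided p = 0.286, 0.343 adjusted over the 4 pairs of members compared). The smallest p that the 70 regroupings allow is 0.0286.

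Klf6 and Klf7, close relatives in sequence, were the members that rose. KLF6 is a widely expressed factor induced early after stimulation, and KLF7 is best known for its need in the developing nervous system. Klf7 (chromosome 1, 64029447 to 64122282, minus strand) had 23.3, 25.5, 25.4 and 24.9 aligned bases per Mb in HdR libraries 1 to 4, against 17.9, 20, 17.2 and 19 in WT libraries 1 to 4. Every HdR library was above every WT library. On the log2 scale it rose by 0.40 ± 0.0643 (SE, limma adjusted p = 7.64e-05), with the HdR mean at 1.34 times the WT mean; it was called under each of the 20 alternatives except the test against a fold of 1.2 (adjusted p = 0.203). A lincRNA gene on the opposite strand, Gm26649, covers 39.3% of the Klf7 exon bases in GENCODE vM21. The strand setting of the authors' counting is not given in the sources used here, so reads of the 2 genes may not have been told apart. Gm26649 had no row of its own among the deposited genes, so its level cannot be seen here.

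Klf6 (chromosome 13, 5861482 to 5870394) had 461, 500, 469 and 463 aligned bases per Mb in HdR libraries 1 to 4 and 447, 443, 431 and 450 in WT libraries 1 to 4. The genotypes did not overlap, but HdR 1 at 461 and WT 4 at 450 were close. Its log2 fold change was 0.10 ± 0.0352 (SE, limma adjusted p = 0.0352), with the HdR mean at 1.07 times the WT mean. The call was lost without HdR 2 (adjusted p = 0.143), HdR 3 (0.0583), WT 1 (0.0656) or WT 3 (0.0618), and adjusted p ran from 0.00567 to 1 over the 20 alternatives, with the direction kept in all of them. The log2 ratio of Klf6 to Klf7 was 4.15 to 4.25 in HdR and 4.40 to 4.57 in WT, a difference of -0.31 with no overlap (exact permutation test, two-sided p = 0.0286, 0.0572 adjusted over the 4 pairs). That p is the smallest the 70 regroupings allow. With the other pairs as they were, no separation could have brought the adjusted p below 0.0572, so the adjustment does not judge the unequal rise.

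Klf2, known for keeping endothelial cells and T cells quiescent, was near the lower limit of the data. Klf2 (chromosome 8, 72319033 to 72321656) had 1.05, 1.27, 0.986 and 0.798 aligned bases per Mb in HdR libraries 1 to 4, against 1.70, 1.96, 2.08 and 1.31 in WT libraries 1 to 4. The groups did not overlap, with HdR 2 at 1.27 just below WT 4 at 1.31. These values rest on the equivalent of 6.1 to 36.4 read pairs a library. The log2 fold change at a pseudocount of 1 was -0.44 ± 0.133 (SE, limma adjusted p = 0.0114), which the pseudocount shrinks, and it was -0.72 with a pseudocount of 0.1. On the plain scale the HdR mean was 0.582 times the WT mean. The call was lost when each library was thinned to the depth of the smallest (-0.35, adjusted p = 0.169, in a range of 0.00523 to 0.611 over 19 alternatives). The ERK5 and MEF2 pathway is a route known to induce Klf2 in endothelium. Of its 6 tested genes 1 was called lower and 0 higher, against 23.8% and 21.2% of all tested genes. The gene called was Map3k3, which encodes an upstream kinase (log2 fold change -0.18 ± 0.0567, SE). The kinase gene Mapk7, which encodes ERK5, was at -0.14 (limma adjusted p = 0.0781). The number called lower was 4 without WT 3 and 2 by limma-voom, and it was 0 without HdR 4 and at equal depth, where Map3k3 had adjusted p = 0.0665.

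**Figure D3:**
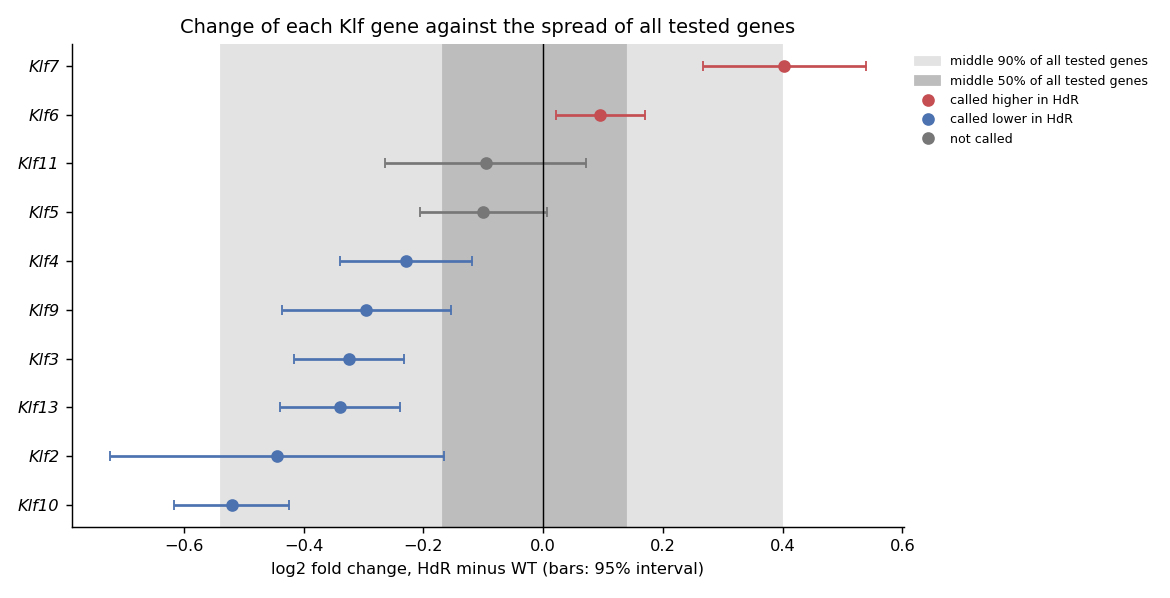
Log2 fold change, HdR minus WT, of each Klf gene with its 95% interval, over grey bands for the middle 50% and 90% of all tested genes. Klf10 lies at -0.52 and Klf7 at 0.40, close to the edges of the wider band, which runs from -0.54 to 0.40.

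Klf3, the CtBP-binding repressor of the family, was lower in every HdR library. Klf3 (chromosome 5, 64803388 to 64832901) had 130, 128, 130 and 141 aligned bases per Mb in HdR libraries 1 to 4, against 170, 174, 166 and 154 in WT libraries 1 to 4. The groups did not overlap, and HdR 4 and WT 4 stood nearest to each other. It fell by 0.33 ± 0.0437 on the log2 scale (SE, limma adjusted p = 1.38e-05), with the HdR mean at 0.797 times the WT mean. Its partner gene Ctbp2 was called higher, at 57.4 ± 2.69 aligned bases per Mb in HdR and 44.3 ± 0.976 in WT (SD, n = 4 each, log2 fold change 0.36 ± 0.0472), while Ctbp1 was at 181 ± 2.13 in HdR and 180 ± 2.49 in WT and was not called.

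Klf10, a TGF-β-inducible repressor, had the largest fall of the 10 members on the log2 scale at a pseudocount of 1. Klf10 (chromosome 15, 38291463 to 38300706, minus strand) had 58.2, 60.0, 61.4 and 59.0 aligned bases per Mb in HdR libraries 1 to 4, against 90.6, 88.0, 85.8 and 79.7 in WT libraries 1 to 4. All HdR libraries lay within 4 units of each other and well below the lowest WT library, WT 4. Klf10 fell by 0.52 ± 0.0456 on the log2 scale (SE, limma adjusted p = 1.21e-07), with the HdR mean at 0.693 times the WT mean. It was called under all 20 alternatives, between -0.57 and -0.48, and against a fold of 1.2 (limma treat adjusted p = 0.000503). At a pseudocount of 0.1, and under limma-voom, Klf2 had the larger fall.

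Klf11, the closest relative of Klf10, was not called. Klf11 (chromosome 12, 24651274 to 24662789) had 8.57, 9.71, 9.10 and 9.66 aligned bases per Mb in HdR libraries 1 to 4 and 9.89, 9.47, 10.7 and 9.81 in WT libraries 1 to 4. The groups overlapped, with WT 2 below HdR 2 and HdR 4. The log2 fold change was -0.10, with a 95% interval of -0.26 to 0.07 (limma adjusted p = 0.34). The log2 ratio of Klf10 to Klf11 was 2.49 to 2.63 in HdR and 2.89 to 3.09 in WT, a difference of -0.42 with no overlap (exact permutation test, two-sided p = 0.0286, 0.0572 adjusted over the 4 pairs). In this pair too p was the smallest the test allows, and with the other pairs as they were no separation could have passed after adjustment.

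**Figure D4:**
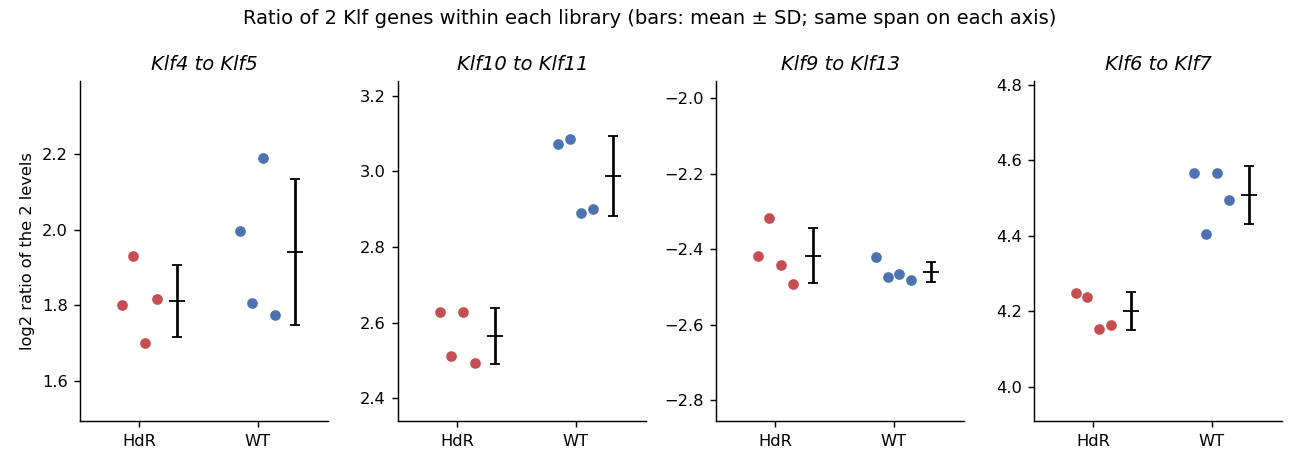
Log2 ratio of the levels of 2 Klf genes within each library, for 4 pairs, with bars for the mean ± SD over the 4 HdR and 4 WT libraries. Klf10 to Klf11 and Klf6 to Klf7 are lower in every HdR library, while Klf4 to Klf5 and Klf9 to Klf13 overlap.

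Klf9, a target of the glucocorticoid receptor and the clock, had 18.6, 19.6, 18.1 and 18.1 aligned bases per Mb in HdR libraries 1 to 4, against 24.1, 24.8, 20.7 and 22.8 in WT libraries 1 to 4 (chromosome 19, 23141226 to 23168134). The groups did not overlap, and WT 3 was the WT library nearest to HdR. The log2 fold change was -0.30 ± 0.0671 (SE, limma adjusted p = 0.00175), with the HdR mean at 0.805 times the WT mean. Klf13 (chromosome 7, 63886351 to 63938915, minus strand), known for its role in T cell chemokine expression, had 104, 102, 103 and 106 aligned bases per Mb in HdR libraries 1 to 4, against 133, 142, 119 and 132 in WT libraries 1 to 4. HdR libraries were tight and every one lay below WT 3, the lowest WT library. It fell by 0.34 ± 0.0474 on the log2 scale (SE, limma adjusted p = 2.13e-05), with the HdR mean at 0.788 times the WT mean. The log2 ratio of Klf9 to Klf13 was -2.49 to -2.32 in HdR and -2.48 to -2.42 in WT, and its difference of 0.04 was within the spread between libraries (exact permutation test, two-sided p = 0.343, 0.343 adjusted over the 4 pairs).

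Of the other Klf genes in the table, Klf16 and Klf8 passed the filter. Klf16 was called lower, at 72.9 ± 4.2 aligned bases per Mb in HdR and 85.5 ± 8.34 in WT (SD, n = 4 each, log2 fold change -0.23 ± 0.061, SE), and Klf8 was at -0.15 ± 0.116 and was not called. Klf15 was below the filter, at 0.26 to 0.817 in HdR and 0.974 to 1.68 in WT, and with no filter its log2 fold change was -0.67 ± 0.143 (SE, limma adjusted p = 0.00595). Its mean, 0.474 in HdR and 1.34 in WT, was below that of Klf2 in both genotypes, so this change rests on few reads. Klf1, Klf12, Klf14 and Klf17 averaged 0.201 or less in both genotypes. Sp proteins bind the same GC boxes. In their family 1 of 5 tested genes was called lower and 0 higher, against 23.8% and 21.2% of all tested genes. That gene was Sp4 (-0.36 ± 0.126, SE, limma adjusted p = 0.0291), whose call was lost without HdR 2, HdR 4, WT 1 or WT 4 (adjusted p 0.0726 to 0.092) and at equal depth (0.158), while 2 were called lower without WT 3. Sp1 was at -0.03 and not called, and at 0.01 with upper-quartile scaling.

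Genes that encode partners and regulators of KLF proteins were called in both directions. Of 10 corepressor and coactivator genes 2 were called higher and 3 lower, close to the background of 21.2% higher and 23.8% lower over all tested genes. The histone deacetylase gene Hdac1 rose (0.13 ± 0.0378), as did Ctbp2, while the acetyltransferase gene Kat2b (-0.52 ± 0.0734) and the Sin3 gene Sin3b (-0.18 ± 0.0435) fell (log2 fold change, SE). The acetyltransferase gene Ep300 was also called lower (-0.17 ± 0.0543), a call lost under 8 of 20 alternatives, among them the omission of HdR 2 or WT 2 and upper-quartile or total scaling (limma adjusted p 0.0578 to 0.0651). Sin3a, whose protein KLF9, KLF10, KLF11 and KLF13 bind, was at 0.04 (limma adjusted p = 0.575). Of 6 ubiquitin ligase genes whose products act on KLF proteins, Smurf1 rose (0.27 ± 0.0335) and Siah1a fell (-0.22 ± 0.0725), and the call of Siah1a was lost without HdR 3, HdR 4, WT 1 or WT 2 (limma adjusted p 0.0503 to 0.0757) and at equal depth (0.0718). Wwp1 and Fbxw7, which encode ligases known to act on KLF5, were at 0.06 and 0.05 and were not called.

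The TGF-β pathway, the route that gave Klf10 and Klf11 their first names, was split. Of 12 tested genes 3 were called higher and 5 lower, against 21.2% and 23.8% of all tested genes. The median log2 fold change of the list was -0.12. The receptor gene Tgfbr2 had 342 ± 14.2 aligned bases per Mb in HdR and 259 ± 13.2 in WT (SD, n = 4 each, log2 fold change 0.40 ± 0.0417, SE) and the ligand gene Tgfb2 was also higher (0.64 ± 0.124). The receptor gene Tgfbr1 was lower (-0.41 ± 0.073), as was the inhibitory Smad gene Smad7 (-0.16 ± 0.0564). The call of Smad7 was lost under 12 of 20 alternatives, among them the omission of HdR 1, HdR 2, HdR 4, WT 1 or WT 2 (limma adjusted p 0.0591 to 0.113) and equal depth (0.137).

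Circadian clock genes were lower or not called. Of 18 tested genes, 12 were called lower and 0 higher in HdR, against 23.8% and 21.2% of all tested genes. The median log2 fold change of the list was -0.36, and 7 of 12 were lower with the stricter filter. The 4 with the smallest p were Rora, which encodes an activator of Arntl (29.3 ± 1.04 aligned bases per Mb in HdR and 45.9 ± 1.93 in WT, SD, n = 4 each), Cry2 (-0.58 ± 0.0493), the repressor gene Nfil3 (-0.49 ± 0.0574) and Per1 (-0.29 ± 0.0371, log2 fold change, SE). Clock and Nr1d1 were at -0.04 and -0.06 and were not called. Of 6 tested glucocorticoid response genes 3 were lower and 2 higher: Zbtb16 (-0.75 ± 0.0588) and Per1 fell, Tsc22d3 was called lower (-0.16 ± 0.0594), and Sgk1 (0.53 ± 0.0593) and the receptor gene Nr3c1 (0.19 ± 0.0586) rose (log2 fold change, SE). The call of Tsc22d3 was lost under 14 of 20 alternatives, among them the omission of any single library but WT 1 or WT 2 (limma adjusted p 0.051 to 0.145) and equal depth (0.189). The call of Nr3c1 was lost without HdR 3 (limma adjusted p = 0.0695) and at equal depth (0.0633), which left 2 lower and 1 higher in both settings.

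Immediate early genes, a class that several Klf genes share features with, held more falls than any other of the 9 related lists. Of 19 tested, 16 were called lower and 0 higher, against 23.8% and 21.2% of all tested genes. The median log2 fold change of the list was -0.60, and 1 was called higher with upper-quartile scaling. The phosphatase gene Dusp1 (-0.67 ± 0.0391), Junb (-0.60 ± 0.0385), Ier2 (-0.71 ± 0.047) and Btg2 (-0.72 ± 0.0522, log2 fold change, SE) had the smallest p. All 4 log2 fold changes were below that of Klf10, and these differences were not tested. Against a fold of 1.2, limma's treat left 10 immediate early genes, 4 clock genes, 1 corepressor or coactivator gene and 1 glucocorticoid response gene called lower. It left 2 TGF-β pathway genes and 1 glucocorticoid response gene called higher, and no calls in the other 4 lists.

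**Figure D5:**
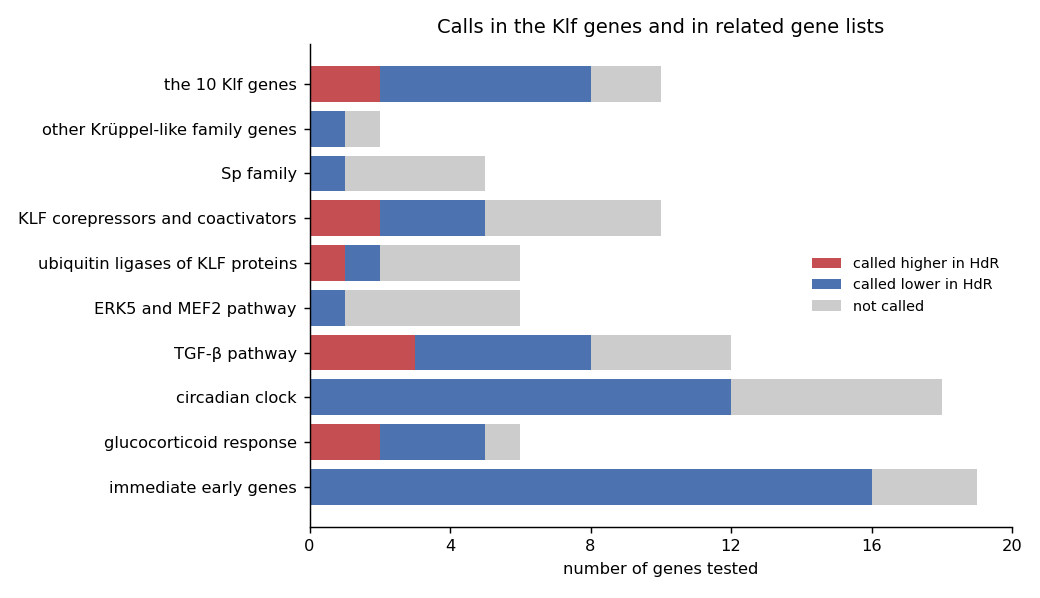
Number of tested genes called higher in HdR, called lower in HdR or not called, among the 10 Klf genes and in 9 related gene lists. The circadian clock list has 12 of 18 lower and the immediate early list 16 of 19 lower, with 0 higher in both.

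The genes with the profile most like that of 2 members were sought among 8799 tested genes with a mean of at least 10 aligned bases per Mb, by the root mean square difference of log2 levels, each centred on its own mean, over the 8 libraries. Nearest to Klf10 were Pim3, which encodes a serine/threonine kinase (0.0281), Foxn1, a transcription factor gene of hair follicle and differentiating keratinocytes (0.0314), and Nab2, which encodes a corepressor of EGR factors (0.0369), with log2 fold changes of -0.54, -0.51 and -0.56. Nearest to Klf7 were Mbnl3, which encodes an RNA-binding protein (0.0419), the kinetochore gene Nsl1 (0.0459) and Cd276, which encodes an immune checkpoint ligand (0.0463), with log2 fold changes of 0.36, 0.36 and 0.35. The members themselves were at -0.52 (Klf10) and 0.40 (Klf7), and likeness over these same libraries fixes that the fold changes are close.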

How the data were processed

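Total RNA (RNeasy kit) was sequenced from NEBNext Ultra II libraries on an Illumina NovaSeq instrument, per the labels' protocols. Reads were placed on GRCm38, per the submitters' processing notes, and the aligner, the counting tool, the annotation and the strand setting are not given in the sources used here. The authors deposited 1 table of signal, read here from the values as coverage: aligned bases summed per gene, with no scaling for depth or length. The commonest non-zero value was 302, taken as the size of 1 full read pair, and the values are not read counts, so no counting interval or detection floor is given. Here each library was scaled with trimmed-mean (TMM) factors, trimming 30% of log ratios and 5% of levels at each end, to aligned bases per Mb of its normalised total. Then log2(level + 1) was tested with limma 3.58.1 (trend and robust, statmod 1.5.0, R 4.3.3) over genes with a mean of at least 1, genotype as the only factor, HdR minus WT, two-sided. A gene was called at Benjamini-Hochberg adjusted p under 0.05 over all 11870 genes. Levels per kb used exon-union lengths of GENCODE vM21. Ratios of members were compared with exact permutation tests. Plots used matplotlib 3.10.9 in Python 3.11.15, and the calculation was checked on simulated data. The replicate numbers did not pair the libraries and were not used in the main comparison. The members, the 9 related lists, the 8 marker lists and the tests were chosen with earlier results of these data known. The named genes are the members, Rbck1, and up to 4 genes of each list with the smallest p. A gene of the TGF-β list that this rule names is counted in the list but not reported here. For the members with the largest rise and fall, the 3 genes of most similar profile are also named. Ctbp1, Sin3a, Ep300, Fbxw7, Smad7, Clock, Nr1d1, Tsc22d3, Klf15 and the markers were named after their values were seen. Alternatives were other scalings, filters, pseudocounts and variance models, the replicate block, a test against a fold of 1.2, thinning to equal depth and leaving libraries out. The same alternatives for the lists and their genes were added after seeing the data.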

Additional observations from a re-analysis of the deposited data

Results flagged for a closer look

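Klf3 in HdR 4, at 141 aligned bases per Mb, stood apart from the other HdR libraries at 128 to 130, with a gap of 0.842 of the group's range. HdR 4 was also the shallowest library. It was the only one of 28 groups of 4 libraries examined, over the levels of the 10 members and the 4 ratios, to be marked this way, and chance marks about 1 in 20. Without HdR 4 the Klf3 call remained.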

How the results depend on the processing

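Each of the 10 members kept its direction under every alternative run, and 183 of 199 member values also kept their side of the threshold. The number of members called lower was 5 to 7 under every alternative except the test against a fold of 1.2. That test left 887 genes called, 343 higher and 544 lower, with 0 members higher and 1 lower. The number of members called higher was 1 to 2 when each library was left out, 1 with HdR 4 and WT 4 both left out and 1 with the replicate block, in each case through the loss of Klf6. The replicate block also left 2 of 4 basal keratinocyte markers called higher (without Krt5 and Col17a1) and lost the calls of Lor, Ep300, Smad7 and Tsc22d3. Under upper-quartile scaling the calls over all genes split into 3113 higher and 2278 lower (57.7% higher, against 47.1% with TMM). The stricter filter left Klf2 untested. Correlations of same-numbered libraries' deviations from their genotype means were -0.222 to 0.028, and 2 of 4 HdR libraries correlated best with the WT library of their own number. Under the replicate block the difference in log2 ratio was -0.42 for Klf10 to Klf11 and -0.31 for Klf6 to Klf7 (exact sign-flip permutation, p = 0.125 for each, the smallest that 4 pairs allow). With HdR 4 and WT 4 both left out the differences were -0.43 and -0.30 (exact permutation, p = 0.1 for each, the smallest that 3 against 3 allows). Of the list and marker genes named beside the members, Sp1 changed sign, to 0.01 with upper-quartile scaling. Fbxw7 (to -0.018) and Ctbp1 (to a value that rounds to 0) also changed sign under 1 of 20 alternatives. Clock (to 0.007) and Krt14 (to 0.008) did so under 2 of 20. None of these genes was called, and the cause was not tested. The lower depth of HdR limits Klf2 most, which had as few as 6.1 read-pair equivalents.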
